A study of Mus musculus with 9 samples.

Results

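The genes described here are 10 mouse genes that respond to temperature or to misfolded protein, namely the cold-inducible RNA-binding protein genes Cirbp and Rbm3 and the heat shock and chaperone genes Hspa1a, Hspa1b, Hspa8, Hsp90aa1, Hsph1, Dnajb1, Hspb1 and Hspa5. They were chosen by gene symbol, but with earlier results of these data known, and each matched 1 of the 24539 genes in the count table. All 10 passed the filter on low counts, as did 16745 genes in all, and the smallest count of any of them in any library was 997.

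The study asked what the DNA demethylase TET1 does in fat, and compared mice whose adipocytes lack Tet1 with controls before and after a short stay in the cold. RNA-seq was made from inguinal fat, a subcutaneous white depot in which beige adipocytes arise in the cold, with 1 library per mouse. The labels call the sample flash-frozen tissue, whereas the study's design text speaks of fractionated adipocytes. The libraries held between 47605902 and 56292251 counts.

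All mice were on a C57BL/6 background, carried floxed Tet1 alleles and ate chow, and neither age nor sex is given for them. WT denotes floxed control mice and KO denotes mice in which Fabp4-Cre also deletes Tet1 (Adi-Tet1KO). The Fabp4 promoter drives Cre in adipocytes but is also active in macrophages and some other cells. RT denotes mice kept at room temperature and cold denotes mice kept at 4 °C for 4 h. The groups were WT at RT (2 mice), KO at RT (2 mice), WT in cold (3 mice) and KO in cold (2 mice).

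The labels contradict each other for 2 KO mice. Mouse 1781 is cold by its column name in the count table and RT by its sample title, and mouse 1786 is RT by its column name and cold by its title. The column names were followed. The cold values of the 10 genes and of the other named genes that were called are also given without these mice and with the groups of the titles. In addition, Tet1 was not lower in the libraries labelled KO. It stood at 12.3 and 5.91 CPM (counts scaled to library size) in KO at RT and at 10.2 and 5.30 CPM in KO in cold, against 3.88 to 5.33 CPM in the 5 WT libraries. Where in the gene these reads lie was not examined, so KO is used below as the name on the label. As a check of the cold label, 5 of 9 thermogenic genes were called higher in cold over both genotypes, among them Ucp1 (log2 fold change 2.92 ± 0.45 SE, adjusted p = 0.0136 in edgeR's quasi-likelihood test). In edgeR 2 of the 9 were called in WT and 0 in KO, where DESeq2 called 4. In KO 5 were higher and 1 lower at an unadjusted p under 0.05 in edgeR, against 8.67% and 6.89% of all genes. Over both genotypes 1 of the 9 was also lower at that p. Without both mice of conflicting labels 4 of the 9 were called over both genotypes, and with the groups of the titles 0. The call of Ucp1 ended without mouse 1786 alone, without both mice (2.78, adjusted p = 0.0511) and with the titles (2.18, adjusted p = 0.455).

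Cells meet a change in temperature with 2 opposite sets of genes. CIRBP and RBM3 are small RNA-binding proteins with an RNA recognition motif and a glycine-rich tail. Mild cooling raises them in mammalian cells, and they bind mRNAs and affect their stability, translation and polyadenylation. Heat and misfolded protein instead release heat shock factor 1 (HSF1), which binds inverted repeats of the unit GAA, the heat shock elements, in front of the genes of cytosolic chaperones such as HSP70. The endoplasmic reticulum has its own programme, the unfolded protein response, whose best known target is Hspa5.

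To show the sequence in front of these genes, the 250 bases upstream of the transcription start were taken from RefSeq (GRCm38.p6) and searched on both strands. The heat shock element of 2 units was read as GAANNTTC or TTCNNGAA, which are the same length and can share bases, and the endoplasmic reticulum stress element as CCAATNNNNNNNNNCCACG. RefSeq promoters were matched for 7 of the 10 genes. There was no promoter entry for Rbm3, Hspa8 or Hsp90aa1. The stretches that hold the matches are printed 5′ to 3′ on the strand of the gene, with the matched bases in capitals. Those of Hspa1a (chr17:34972207-34972306, minus strand) and Hspa1b (chr17:34959289-34959388, minus strand) were the same in every base shown, and over the whole upstream window 247 of 250 bases were identical.
Hspa1a and Hspa1b: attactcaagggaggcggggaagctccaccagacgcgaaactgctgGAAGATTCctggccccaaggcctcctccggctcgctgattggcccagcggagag
Hspb1: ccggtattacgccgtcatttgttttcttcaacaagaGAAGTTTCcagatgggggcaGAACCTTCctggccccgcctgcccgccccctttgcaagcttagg
Hsph1: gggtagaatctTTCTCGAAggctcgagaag
Hspa5: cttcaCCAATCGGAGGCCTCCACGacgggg

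In Hspa1a and Hspa1b the capitals begin 104 bases before the start. In Hspb1 (chr5:135887766-135887865, plus strand) there were 2 matches, beginning 117 and 97 bases before it. In Hsph1 (chr5:149636351-149636380, minus strand) the match begins 33 bases before the RefSeq start. It lies inside the longer GENCODE model of the gene, and a short stretch is therefore shown. The same holds for Hspa5 (chr2:34772020-34772049, plus strand), where the endoplasmic reticulum stress element begins 65 bases before the RefSeq start. A heat shock element of 2 units was found upstream of 4 of the 7 genes. Hspa1a and Hspa1b, nearly identical upstream, count as 2 of these 4, and the genes were picked as heat shock or temperature genes. The same element was found for 14.5% of the 27025 mouse genes with a RefSeq promoter and in 12.8% of the 32851 promoters, since a gene can have more than 1. Enrichment was not tested. A heat shock element of 3 units, in which either form of the 2 units is followed after a further NN by the first unit again, was in none of the 7 genes and in 0.466% of all promoters. The endoplasmic reticulum stress element was in Hspa5 alone among the 7 and in 0.113% of all promoters. Cirbp and Dnajb1 held no match to any of these motifs in this window. A match of letters is a description of the sequence and was not tested for binding.

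In the cold, Cirbp and Rbm3 were higher and Hsph1, which encodes the HSP110 nucleotide exchange factor, was lower. Averaged over both genotypes, Cirbp rose 1.68-fold, Rbm3 rose 1.51-fold and Hsph1 was 1.995-fold lower. The other 7 genes were not called. A gene is called here when its adjusted p, by Benjamini-Hochberg over all genes tested in edgeR's quasi-likelihood test, is under 0.05 and its fold change is above 1.5. Of all genes tested, 1.6% were called higher and 1.55% lower, against 2 and 1 of the 10 genes. Cirbp and Rbm3 were higher in all 5 cold libraries than in any RT library, as were 5.89% of all genes. Hsph1 and Hspa1b were lower in all 5 cold libraries than in any RT library, as were 6.01% of all genes. The median log2 fold change was -0.12 over the 10 genes and 0.00 over all genes tested.

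**Figure D1:**
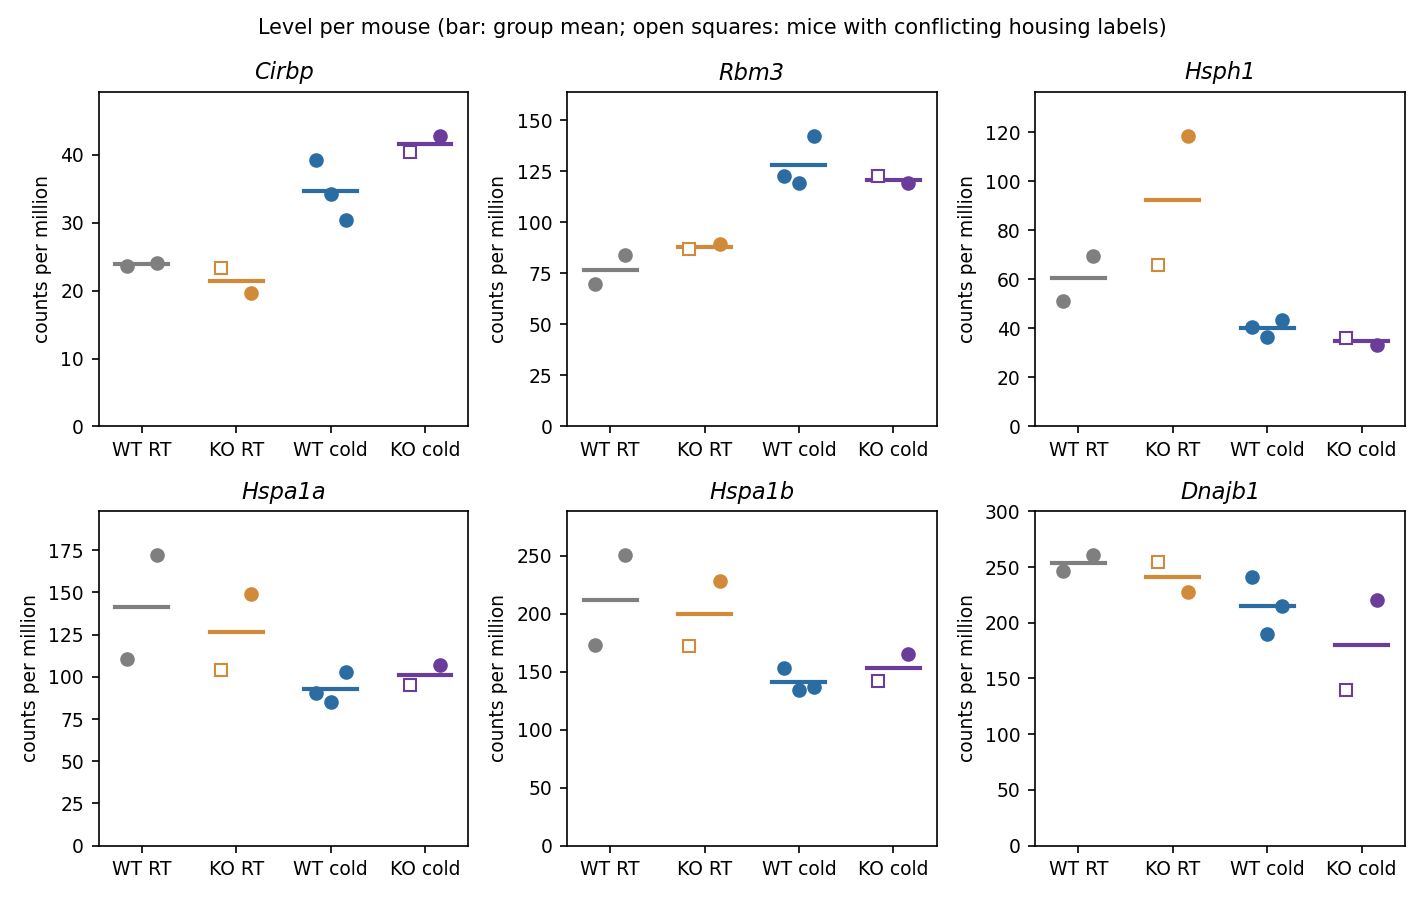
Level of 6 genes in each of the 9 libraries (vertical axes, CPM from 0; horizontal axes, the 4 groups). Points are mice, bars are group means and open squares are the 2 KO mice whose housing labels conflict. Cirbp and Rbm3 stand higher in all 5 cold libraries, Hsph1 and Hspa1b stand lower in them, and Hspa1a and Dnajb1 overlap between RT and cold.

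Cirbp (chr10:80165985-80172786, plus strand, GRCm38) encodes the cold-inducible RNA-binding protein. It stood at 23.6 and 24.1 CPM in WT at RT, at 23.3 and 19.7 CPM in KO at RT, at 39.3, 34.2 and 30.4 CPM in WT in cold and at 40.4 and 42.8 CPM in KO in cold. The lowest cold library was therefore above the highest RT library, and the KO libraries in cold were the highest of all. The log2 fold change over both genotypes was 0.74 ± 0.10 (SE, adjusted p = 0.00785). It was 0.54 ± 0.13 in WT (adjusted p = 0.144, not called) and 0.95 ± 0.14 in KO (adjusted p = 0.0471, called). Without both mice of conflicting labels the log2 fold change over both genotypes was 0.83 (adjusted p = 0.0269), and with the groups of the titles it was 0.34 (adjusted p = 0.892). Over all 14 alternatives the adjusted p lay between 5.50e-09 and 0.892, and the gene was called in 13 of them, including every one that left out a single mouse. The call in KO ended without both mice (log2 fold change 1.11, adjusted p = 0.177) and with the titles (0.14), and it held in 3 of 14 alternatives.

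Rbm3 (chrX:8138975-8145880, minus strand) encodes the other cold-inducible protein of this family. Its level was 69.6 and 83.7 CPM in WT at RT, 87.0 and 89.1 CPM in KO at RT, 122, 119 and 142 CPM in WT in cold and 123 and 119 CPM in KO in cold. The 5 cold libraries lay close together and above every RT library. The log2 fold change over both genotypes was 0.60 ± 0.09 (adjusted p = 0.0110), a fold just above the threshold of 1.5. It was 0.74 ± 0.12 in WT, with an adjusted p of 0.04999 that lay just under the threshold, and 0.46 ± 0.13 in KO (adjusted p = 0.157). The call over both genotypes is a narrow one. It ended without both mice of conflicting labels (0.58, adjusted p = 0.0619), with the titles (0.35, adjusted p = 0.691), without KO mouse 1786 alone (0.59, adjusted p = 0.0508), and without WT mouse 1788 (0.54) or 1812 (0.56), where the fold fell under 1.5. The direction was upward in all 14 alternatives, with an adjusted p between 8.56e-07 and 0.691. The call in WT ended without any 1 of the 9 mice, although the log2 fold change stayed between 0.61 and 0.88 in the 14 alternatives.

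An antisense gene, Rbm3os, overlaps Rbm3 by 452 bases, and the strand setting of the counting is not given. It held 5289 counts over the 9 libraries. Rbm3os stood at 7.61 to 10.2 CPM in the 4 RT libraries and at 12.2 to 15.8 CPM in the 5 cold libraries, a log2 fold change of 0.63 ± 0.10 (adjusted p = 0.0136). That call ended without both mice of conflicting labels (0.61, adjusted p = 0.0771) and with the titles (0.29, adjusted p = 0.869). Reads of the sense and the antisense gene in the shared bases cannot be told apart without strand.

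Hsph1 (chr5:149614287-149636376, minus strand) encodes HSP110, which reloads HSP70 with ATP and helps to resolve aggregates. It stood at 51.3 and 69.5 CPM in WT at RT and at 66.0 and 119 CPM in KO at RT. The cold libraries read 40.6, 36.6 and 43.3 CPM in WT and 36.3 and 33.4 CPM in KO. All cold libraries lay below all RT libraries, and KO mouse 1814 at RT was far above the rest. The log2 fold change over both genotypes was -0.997 ± 0.172 (adjusted p = 0.0184). Within WT it was -0.59 ± 0.23 (adjusted p = 0.329) and within KO -1.40 ± 0.26 (adjusted p = 0.0734), and neither was called. Without both mice of conflicting labels the value was -1.21 (adjusted p = 0.0188), and with the titles it was -0.61 (adjusted p = 0.821). The call also ended without KO mouse 1782 (-0.97, adjusted p = 0.0509) and without WT mouse 1810 (-0.88, adjusted p = 0.0742). The value was negative in all 14 alternatives, with an adjusted p between 4.56e-06 and 0.821.

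Hspa1a (chr17:34969190-34972156) and Hspa1b (chr17:34956436-34959238), both on the minus strand, encode the heat-inducible HSP70. They are neighbouring genes of a single exon with coding sequences that differed at 34 of 1923 aligned positions. Of all stretches of 50 bases, 58.8% of the Hspa1a transcript and 62.3% of the Hspa1b transcript occur in the other copy, and of all stretches of 100 bases 47.1% and 49.9%. Since only reads that map to 1 place were counted, reads from these stretches could not be counted for either gene, and the split between the copies is uncertain. Gm20481, a gene on the other strand, overlaps Hspa1a by 2225 bases and is not used here.

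Hspa1b stood at 173 and 251 CPM in WT at RT, 172 and 228 CPM in KO at RT, 153, 134 and 137 CPM in WT in cold and 142 and 165 CPM in KO in cold. The highest cold library lay only just below the lowest RT library. Its log2 fold change over both genotypes was -0.48 ± 0.14 (adjusted p = 0.0781), which did not pass the test. It was -0.53 without both mice of conflicting labels and -0.36 with the titles.

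Hspa1a stood at 111 and 172 CPM in WT at RT, 104 and 149 CPM in KO at RT, 90.5, 84.8 and 103 CPM in WT in cold and 95.4 and 107 CPM in KO in cold. The RT and cold libraries overlapped through KO mice 1786 and 1782. Its log2 fold change over both genotypes was -0.47 ± 0.16 (adjusted p = 0.121), -0.55 without both mice of conflicting labels and -0.41 with the titles. With the counts of both copies summed the value was -0.48 (adjusted p = 0.0935), also not called. Hspa1a made up 37.2% to 42.9% of the counts of the pair in the 9 libraries. WT mouse 1810 was the highest library for both copies, followed by KO mouse 1814. The 2 copies followed each other over the 9 libraries (Pearson r = 0.95 of log2 CPM, given as a description, since the points share housing and, in part, sequence). DESeq2 put Hspa1b at an adjusted p of 0.0127 but under the fold threshold, and over 15 alternatives the adjusted p of Hspa1b lay between 0.0127 and 0.759.

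Dnajb1 (chr8:83608193-83612653, plus strand) encodes HSP40, the cochaperone that hands unfolded protein to HSP70. It stood at 246 and 261 CPM in WT at RT, 255 and 228 CPM in KO at RT, 241, 190 and 215 CPM in WT in cold and 140 and 220 CPM in KO in cold. KO mouse 1781, one of the mice with conflicting labels, was the lowest library. The log2 fold change over both genotypes was -0.33 ± 0.14 (adjusted p = 0.203), without both mice it was -0.15 and with the titles it was 0.07. Over its 14 alternatives the adjusted p lay between 0.0454 and 0.966 and no call was made.

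**Figure D2:**
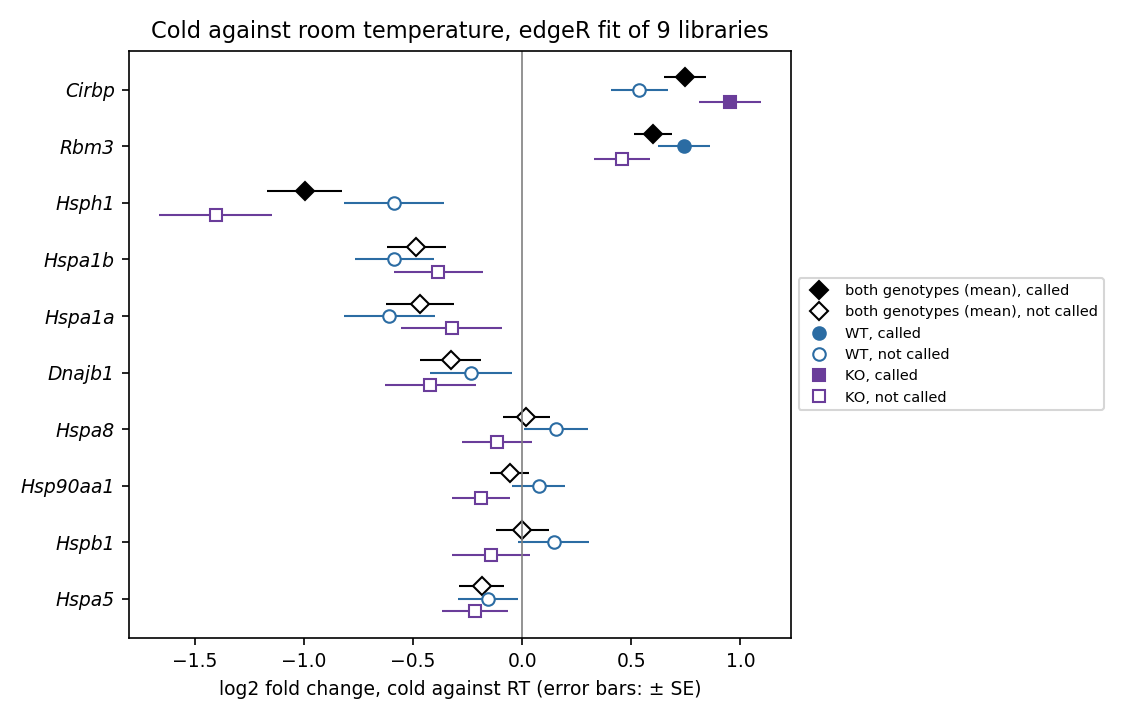
Log2 fold change of cold against RT for each of the 10 genes (horizontal axis; error bars ± SE), averaged over both genotypes (diamonds), in WT (circles) and in KO (squares), from 1 edgeR fit of 9 libraries. Filled symbols are called: over both genotypes Cirbp at 0.74, Rbm3 at 0.60 and Hsph1 at -0.997, in WT Rbm3 at 0.74 and in KO Cirbp at 0.95.

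None of the remaining 4 chaperone genes was called. Hspa8 (chr9:40800984-40810087, plus strand), the constitutive HSP70 that folds new proteins and uncoats clathrin vesicles, ranged from 1604 to 1965 CPM at RT (median 1717) and from 1601 to 1913 CPM in cold (median 1795). Its log2 fold change over both genotypes was 0.02 ± 0.11 (adjusted p = 0.938), 0.04 without both mice of conflicting labels and 0.10 with the titles. The ranges of the 2 housings almost coincided. Hsp90aa1 (chr12:110690605-110702728, minus strand), the inducible cytosolic HSP90, ranged from 300.8 to 391.7 CPM at RT and from 297 to 347 CPM in cold. Its log2 fold change was -0.06 ± 0.09 (adjusted p = 0.750), -0.05 without both mice and 0.04 with the titles.

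Hspb1 (chr5:135887919-135889563, plus strand) encodes HSP27, a small heat shock protein that holds unfolded protein and binds actin. It ranged from 121 to 178 CPM at RT and from 127 to 155 CPM in cold, with a log2 fold change of 0.00 ± 0.12 (adjusted p = 0.998), -0.06 without both mice and -0.0021 with the titles. The highest value was again in KO mouse 1814 at RT. Of the 4 genes printed with a heat shock element above, 1, Hsph1, was called lower, Hspa1a and Hspa1b had negative values that were not called, and Hspb1 was near 0.

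Hspa5 (chr2:34771970-34777547, plus strand) encodes BiP, the HSP70 of the endoplasmic reticulum. It stood at 677 and 712 CPM in WT at RT, 650 and 747 CPM in KO at RT, 600, 592 and 678 CPM in WT in cold and 548 and 655 CPM in KO in cold. The housings overlapped, and the log2 fold change was -0.19 ± 0.10 (adjusted p = 0.314), -0.18 without both mice of conflicting labels and -0.07 with the titles. It was negative in all 14 alternatives, in which the adjusted p lay between 0.207 and 0.954.

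Within each genotype few genes of the whole table passed the test. In WT, 0.197% of all genes were called higher in cold and 0.173% lower, and of the 10 genes only Rbm3 was called, higher. In KO, 0.191% were called higher and 0.143% lower, and only Cirbp was called, higher. No member was called lower in either genotype by edgeR, and at an unadjusted p under 0.05 3 were lower in WT and 1 in KO, against 7.13% and 6.89% of all genes. At the same p 2 were higher in each genotype, against 6.04% of all genes in WT and 8.67% in KO. DESeq2 called 0 lower in WT and 1, Hsph1, lower in KO. That Rbm3 was called in WT and Cirbp in KO is no evidence of a difference between the genotypes, since the cold responses themselves did not differ by the test. The difference of the cold response, KO minus WT, was 0.42 ± 0.19 log2 for Cirbp (unadjusted p = 0.0587), -0.28 ± 0.17 for Rbm3 (unadjusted p = 0.136) and -0.82 ± 0.35 for Hsph1 (unadjusted p = 0.0439). With adjustment over all genes in edgeR these were 1.00 each. Of all genes tested, 0% passed in this comparison by edgeR, 313 were higher and 145 lower at an unadjusted p under 0.05, and DESeq2 called 1 higher and 2 lower. Without KO mouse 1814 at RT the difference of Hsph1 was -0.33, and with the groups of the titles it was -0.05.

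Between the genotypes at the same housing no member was called. At RT 0.0358% of all genes were called in either direction and in cold 0.0776%. At RT, 1 of the 10 genes, Hsph1, had an unadjusted p under 0.05 (log2 fold change KO against WT 0.61 ± 0.25, adjusted p = 0.667 in edgeR). Its value was 0.13 to 0.98 and never called over 14 alternatives. Of all genes tested, 2.68% were higher and 4.72% lower in KO at RT at that unadjusted p. In cold none of the 10 genes had such a p, against 3.32% of all genes higher and 2.77% lower. DESeq2 called 0 at either housing. The other 9 genes at RT lay between -0.16 for Hspa1a and 0.30 for Hspb1, and Hsp90aa1 was at 0.27 ± 0.13 (adjusted p = 0.703). In cold the 10 genes lay between -0.26 for Dnajb1 and 0.26 for Cirbp (0.26 ± 0.13, adjusted p = 0.846).

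Levels between genes were compared per length, with the RPKM values (reads scaled to gene length and library size) that the authors deposited. Hspa8 was the highest of the 10 genes at 799 ± 49 RPKM (SD, n = 9 libraries), above 99.7% of the genes tested. Hspa5 followed at 237 ± 18 RPKM and did not overlap with Hspb1 at 145 ± 17 RPKM. Hspb1 and the next gene, Hsp90aa1 (111 ± 9 RPKM), stayed apart by little, with a lowest Hspb1 value of 131 RPKM against a highest Hsp90aa1 value of 127 RPKM. Dnajb1 (65.4 ± 10.8 RPKM) lay below Hsp90aa1 without overlap, whereas Dnajb1 overlapped with Hspa1b (58.5 ± 12.97 RPKM), Hspa1b with Hspa1a (38.4 ± 9.2 RPKM) and Hspa1a with Rbm3. The values of the 2 HSP70 copies leave out reads that fit both. At the lower end Rbm3 (28.3 ± 6.6 RPKM), Cirbp (23.5 ± 6.9 RPKM) and Hsph1 (14.9 ± 7.0 RPKM) overlapped with each other. These 3 lowest genes were also the 3 that were called in cold, and Hsph1 varied most of the 10 across libraries, with a coefficient of variation of 49.3% in CPM against 7.92% for Hspa8.

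**Figure D3:**
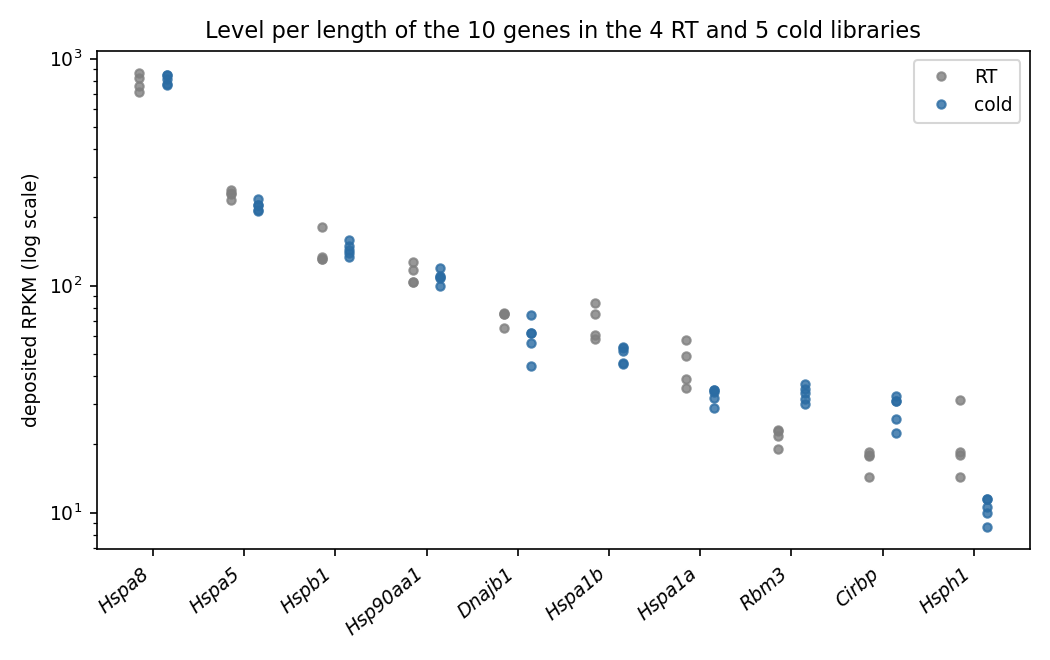
Deposited RPKM of the 10 genes (vertical axis, log scale) in the 4 RT libraries (grey) and 5 cold libraries (blue), ordered by their mean over all 9. Hspa8 leads at 713 to 861 RPKM, and Hsph1 closes the order at 8.67 to 31.2 RPKM, with its RT points above its cold points.

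Across the 9 libraries Cirbp and Hsph1 ran opposite to each other (Pearson r = -0.90 of log2 CPM), while Cirbp and Rbm3 ran together (r = 0.77). Hspa8 followed Hsp90aa1 (r = 0.84) and Hspb1 (r = 0.83) and was unrelated to Hspa1a (r = 0.02). These are descriptions over 9 libraries that share housing and genotype. The tested genes most like Cirbp were Rnf208 (r = 0.99), Rnf40 (r = 0.98) and Pdcd11 (r = 0.98). Those most like Rbm3 were Clrn1 (r = 0.96), Pitx3 (r = 0.96) and Gmfb (r = 0.95), those most like Hsph1 were Gm13483 (r = 0.97), Rasef (r = 0.96) and Mtmr4 (r = 0.95), and those most like Hspa5 were Rngtt (r = 0.96), Tdrkh (r = 0.95) and Ankfn1 (r = 0.94).

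Among related genes, few were called in the cold. Beside the 10 genes, 26 other cytosolic chaperones and HSF1 targets were tested, with 9 positive and 17 negative log2 fold changes and a median of -0.09. None was called by edgeR or DESeq2, and 1 was higher and 5 lower at an unadjusted p under 0.05 in edgeR. Of all genes tested, 12.1% were higher and 11.4% lower at that p in cold against RT over both genotypes. Hspa4l, a testis-rich HSP110 relative of Hsph1, was at -0.55 ± 0.10 (adjusted p = 0.0188), a fold under 1.5. Without both mice of conflicting labels Hspa4l was at -0.62, a fold above 1.5, and with the titles at -0.33 (adjusted p = 0.811). Hspa4, the third HSP110, was at 0.39 ± 0.09 (adjusted p = 0.0372), also under 1.5. It was at 0.41 without both mice and at 0.18 with the titles (adjusted p = 0.903). Thus within the HSP110 family Hsph1 and Hspa4l had negative values and Hspa4 a positive one. Of the 5 tested heat shock factors and their regulators, Hsf1 was at -0.13 ± 0.07 (adjusted p = 0.296) and Hsf2bp was called higher at 1.40 ± 0.29 (adjusted p = 0.0316), from 0.225 to 0.670 CPM at RT to 0.985 to 1.72 CPM in cold. The call of Hsf2bp ended without both mice of conflicting labels (1.35, adjusted p = 0.134), with the titles (0.97, adjusted p = 0.621) and in all but 1 of the 9 fits that left out a mouse.

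Larger changes were seen in the cochaperone Fkbp5 and the small heat shock protein Hspb7. Fkbp5, a glucocorticoid-induced immunophilin that binds HSP90, stood at 30.3 and 34.1 CPM in WT at RT, 34.4 and 52.2 CPM in KO at RT, 189, 177 and 283 CPM in WT in cold and 115 and 225 CPM in KO in cold. Every cold library was more than 2-fold above every RT library, and the log2 fold change was 2.36 ± 0.25 (adjusted p = 0.00536). It was called without each single mouse and without both mice of conflicting labels (2.43, adjusted p = 0.0129), but not with the titles (1.69, adjusted p = 0.527). The other 14 Hsp90 genes and cochaperones beside Hsp90aa1 were not called. Hspb7, a small heat shock protein best known from heart and skeletal muscle, was low, at 0.627 to 1.30 CPM at RT and 2.39 to 4.99 CPM in cold, a log2 fold change of 1.93 ± 0.30 (adjusted p = 0.0136). Its call ended without WT mouse 1788, without WT mouse 1810, without both mice of conflicting labels (1.66, adjusted p = 0.0619) and with the titles (0.71, adjusted p = 0.903). Summed skeletal muscle markers stood at 24.8 to 40.5 CPM at RT and 33.7 to 82.5 CPM in cold. Of the 10 markers, 3 had positive and 7 negative log2 fold changes (median -0.23), and edgeR called 0. In the highest library, WT mouse 1783, Acta1 alone stood at 63.8 CPM. The part of muscle cells in the value of Hspb7 was not tested.

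**Figure D4:**
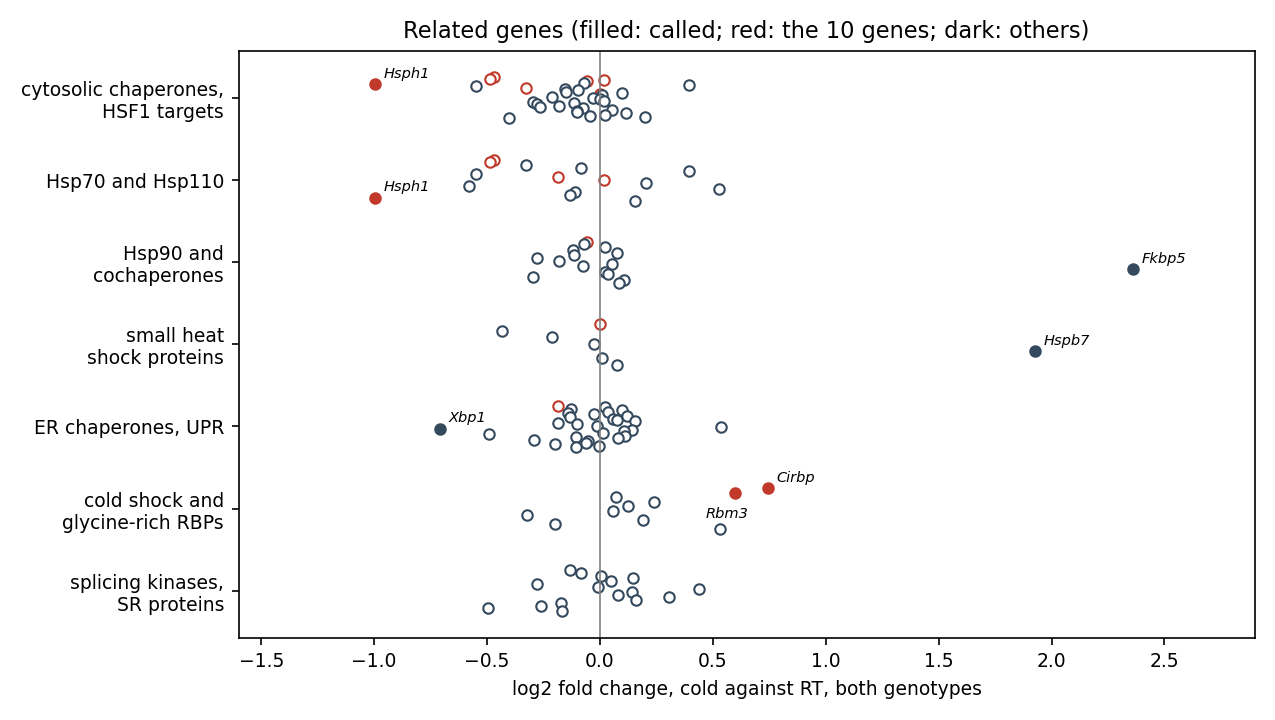
Log2 fold change of cold against RT over both genotypes (horizontal axis) for every tested gene of 7 lists (rows: cytosolic chaperones and HSF1 targets, HSP70 and HSP110, HSP90 and cochaperones, small heat shock proteins, endoplasmic reticulum chaperones, cold shock and glycine-rich RNA-binding proteins, splicing kinases and SR proteins), with the 10 genes in red, others dark, and called genes filled and named. Most points lie near 0, and the called ones are Hsph1, Xbp1, Rbm3, Cirbp, Hspb7 and Fkbp5. A gene in more than 1 list is drawn in each, and the list of heat shock factors with Hsf2bp is not drawn.

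In the endoplasmic reticulum, Xbp1, the transcription factor of the unfolded protein response that IRE1 splices, was lower in cold. Its level was 325 and 391.9 CPM in WT at RT, 262 and 291 CPM in KO at RT, 231, 223 and 199 CPM in WT in cold and 165 and 178 CPM in KO in cold. Its log2 fold change was -0.71 ± 0.09 (adjusted p = 0.00800), and it was called without each single mouse and without both mice of conflicting labels (-0.72, adjusted p = 0.0359). With the titles it was -0.39 (adjusted p = 0.786). Herpud1, which serves degradation at the endoplasmic reticulum, was at 0.54 ± 0.08 (adjusted p = 0.0107) with a fold of 1.45, under the threshold, and at 0.17 with the titles. Of 29 tested genes of this list beside Hspa5, Xbp1 was the only call by edgeR and by DESeq2, and 13 values were positive and 16 negative.

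Among 8 other tested cold shock domain and glycine-rich RNA-binding protein genes, 6 values were positive and 2 negative, and neither edgeR nor DESeq2 called any. At an unadjusted p under 0.05 there was 1, Csdc2, which encodes an RNA-binding protein with a cold shock domain (0.53 ± 0.17, adjusted p = 0.108). Of all genes tested, 12.1% were higher at that p. Of 16 temperature-linked splicing kinases and SR proteins none was called by either tool. At an unadjusted p under 0.05 in edgeR 2 were higher and 3 lower, against 12.1% and 11.4% of all genes. Srsf2, an SR splicing factor, was at 0.44 ± 0.09 (adjusted p = 0.0336) and Tra2a, a splicing activator, at -0.50 ± 0.11 (adjusted p = 0.0357), both under the fold threshold.

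Immediate early genes, which can rise when tissue is stressed in handling, gave no call by either tool among 21 tested. At an unadjusted p under 0.05 in edgeR 0 were higher and 2 lower, against 12.1% and 11.4% of all genes. Their summed level was 18900 to 19460 CPM at RT and 15630 to 19660 CPM in cold. Whether the tissue was stressed in handling was not tested. Among cell type markers, some lists held a call by edgeR and others held none. Adipocyte markers (median log2 fold change -0.05) and endothelial markers (median -0.02) each had 5 positive and 5 negative values, with 0 called by edgeR. DESeq2 called 1 adipocyte marker higher and 0 endothelial markers. Without both mice of conflicting labels the adipocyte marker Cidec was at 1.12 and the adipocyte marker Retn at -0.05. All 10 lymphocyte markers had positive log2 fold changes (median 1.01), with 0 called by edgeR and 2 by DESeq2. At an unadjusted p under 0.05 in edgeR 3 were higher, against 12.1% of all genes. The 10 markers summed to 11.5 to 43.6 CPM at RT and 33.0 to 77.5 CPM in cold. Mammary epithelial markers, of which 2 of 9 tested were called higher, summed to 2255 to 3168 CPM at RT and 2999 to 3718 CPM in cold, and 1 of the 10 stood at 0 in all RT libraries. Adipocyte markers, all 10 detected in every group, summed to 27180 to 30490 CPM at RT and 16770 to 38610 CPM in cold. The low end in cold was KO mouse 1781 alone at 16770 CPM, and the other 8 libraries lay at 27180 CPM or above. Of 10 macrophage markers 1 was called higher, Mertk (0.87 ± 0.09, adjusted p = 0.00451), also without each single mouse and without both mice of conflicting labels (0.90, adjusted p = 0.0191), while 5 of the 10 had negative values and the sum was 485 to 1223 CPM at RT and 621 to 1032 CPM in cold. Of 10 fibroblast markers 8 had positive values and 1 was called higher, Pdgfra (0.81 ± 0.15, adjusted p = 0.0242), a call that ended without both mice (0.60, adjusted p = 0.0898), and the sum was 11410 to 13420 CPM at RT and 11730 to 17570 CPM in cold. With the titles Mertk was at 0.58 and Pdgfra at 0.14, neither called. The part of these cells in the values of the 10 genes was not tested, and in bulk fat fewer cells of a type and less RNA per cell cannot be told apart.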

How the data were processed

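The data are 9 RNA-seq libraries of inguinal fat, 1 per mouse. The authors aligned reads to mm10 with STAR, kept reads mapped to 1 place, removed mitochondrial reads and made counts per gene with featureCounts. These counts were used as deposited. The authors also deposited RPKM values, in which 1 factor per library relates counts to RPKM for each gene. These served only to compare levels between genes and for 1 alternative. For these steps no version, gene annotation or strand setting is given in the sources used here.

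Tests used R 4.3.3, edgeR 4.0.16 and limma 3.58.1, with DESeq2 1.42.0 as an alternative. Plots were drawn in matplotlib 3.10.9 under Python 3.11.15. The 4 groups were modelled together in edgeR on all 9 libraries (filterByExpr, TMM, robust glmQLFit, glmQLFTest), which shares the spread among groups of 2 or 3. CPM (edgeR's cpm) is the count scaled by the TMM-adjusted library size, and correlations used log2 CPM with a prior count of 2. Calls needed an adjusted p under 0.05 (Benjamini-Hochberg over the 16745 genes tested) and a fold above 1.5, the difference of the cold response at the adjusted p alone. The contrast over both genotypes is the mean of the cold effects in WT and KO. SE was computed as |log2 fold change| / sqrt(F). The fit was tested on simulated data for cold against RT over both genotypes. Of 100 genes with a change of 1 log2, edgeR called 80 and DESeq2 90. Of 100 with a change of 2 log2 they called 97 and 99. Among unchanged genes edgeR called 11 of 16336 and DESeq2 34 of 16545. Changes under 1 log2 and effects of genotype were not simulated. Of 4 groups, none has more than 3 mice, and replicates of a group correlated at 0.980 to 0.988.

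The 10 genes and all gene lists were chosen with earlier results of these data known. Named genes were the 10, in each list other than cell type markers up to 4 further genes of lowest p in cold against RT and any called one, and for 4 of the 10 the 3 genes of most similar pattern. Gene positions are from GENCODE vM21 (GRCm38) and promoters from RefSeq. Alternatives were relative log expression size factors, no filter on low counts, DESeq2, no fold threshold, the groups of the sample titles, leaving out both mice of conflicting labels or each mouse in turn, summing Hspa1a and Hspa1b, and RPKM in place of CPM.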

Additional observations from a re-analysis of the deposited data

How the results depend on the processing

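The fold change of each of the 10 genes in 6 comparisons was recomputed under all alternatives, 852 values in all. Of these, 819 kept their side of the threshold, 32 were no longer called, 1 was newly called and 0 reversed a call. Most of the 819 are values of genes not called in the main fit. The main calls over both genotypes held in 13 of 14 alternatives for Cirbp, 9 for Rbm3 and 11 for Hsph1. The call of Rbm3 in WT held in 2 of 14 and that of Cirbp in KO in 3 of 14. The calls that ended stand in the report. For cold against RT over both genotypes, genes called higher and lower numbered 268 and 259, and became 440 and 464 with DESeq2, 503 and 479 with no fold threshold, 161 and 134 when both mice whose labels conflict were left out, and 0 and 1 with the groups of the titles, where 0 of the 10 genes were called. In WT they numbered 33 and 29, and became 247 and 236 with DESeq2, 68 and 45 without both mice and 0 and 0 with the titles, and the 1 call among the 10 genes became 0 with relative log expression factors, without both mice and with the titles. In KO they numbered 32 and 24, and became 304 and 291 with DESeq2, 0 and 0 both without the 2 mice and with the titles, and 52 higher with no filter, while the 1 call among the 10 genes became 2 with DESeq2 and 0 without both mice or with the titles. For KO against WT at RT, DESeq2 called 62 higher and 64 lower, and no filter gave 1 lower. For KO against WT in cold, the counts became 65 and 34 with DESeq2, 8 and 16 with the titles and 21 and 6 without both mice, and no filter gave 1 lower. For the difference of the cold response DESeq2 called 1 higher and 2 lower. The cause of these shifts was not tested, except that no fold threshold admits smaller changes and that leaving out both mice leaves 1 KO mouse at each housing, which is assumed to vary like the other groups.

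Leaving out 1 mouse at a time gave 72 (without WT mouse 1810) to 279 genes higher and 61 (without WT mouse 1810) to 232 lower over both genotypes, with 2 to 3 of the 10 genes called. It gave 0 to 41 higher and 2 to 36 lower in WT, and 0 to 22 higher and 3 to 10 lower in KO, with 0 of the 10 genes called in either. For KO against WT it gave 0 to 6 higher and 0 to 2 lower at RT, and 7 to 17 higher and 0 to 1 lower in cold. For the difference of the cold response it gave 0 to 1 higher and 0 lower, and among the 10 genes 0 were called in these comparisons. No paired analysis was possible because the groups share no replicate numbers. The labels do not say whether mice shared a litter or a cage, and whether depth or the number of mice limits these comparisons was not tested.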

Other observations

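Xbp1, the called gene of the endoplasmic reticulum list, was also at -0.37 ± 0.14 log2 in KO against WT at RT (adjusted p = 0.640 in edgeR) and at -0.35 ± 0.13 in cold (adjusted p = 0.780), so that its value was negative in each contrast of genotype or housing. Within a genotype its cold value was -0.72 in WT and -0.69 in KO, called in neither by edgeR (adjusted p = 0.0602 and 0.0834) and in both by DESeq2. Herpud1 was called higher in KO in cold against KO at RT (log2 fold change 0.74 ± 0.11, adjusted p = 0.0471) and was at 0.33 ± 0.10 in WT (adjusted p = 0.231). The difference between these cold responses was 0.41 ± 0.15 (unadjusted p = 0.0257) and did not pass adjustment over all genes. The call of Herpud1 in KO ended without both mice of conflicting labels (0.71, adjusted p = 0.250) and with the groups of the titles (0.0016).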
